A study of Saccharomyces cerevisiae with 24 samples.

Results

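Ergosterol is the main sterol of yeast membranes, and 32 genes of its synthesis, esterification and regulation were followed here in Saccharomyces cerevisiae with and without Rph1, a JmjC histone demethylase and transcriptional repressor. The genes were taken from a list of standard symbols and matched by systematic name; all 32 were found among the 7036 entries of the RNA count files, and all 32 had enough reads to be among the 6169 genes tested. RNA-seq of total RNA came from 4 groups of 2 libraries, all of strain BY4741: rph1 deletion with rapamycin, wild type with rapamycin, untreated rph1 deletion and untreated wild type. Rapamycin blocks TORC1, the kinase complex that ties growth to nutrients; the labels give neither dose nor duration. FLAG-tagged Rph1 was also mapped by chromatin immunoprecipitation (ChIP), with and without rapamycin, in cells whose genotype is labelled wild type, and the authors' lists of genes from these samples were read, 1 per condition.

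Ergosterol synthesis runs from acetyl-CoA through mevalonate to farnesyl diphosphate, the early part that also feeds ubiquinone, dolichol and protein prenylation. The late part begins when squalene synthase joins farnesyl diphosphate into squalene, and it needs oxygen and haem at several steps. The transcription factors Upc2 and Ecm22 activate late genes when sterol runs low, Sut1 acts on sterol uptake and Mot3 represses genes of low-oxygen growth. The laboratory lineage of BY4741 carries a Ty insertion in HAP1, a haem-dependent regulator of sterol genes, which limits all 4 groups as a model of sterol control.

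The libraries held 18037199 to 24769193 counts. RPH1 itself had 30 to 82 reads in the deletion libraries, against 1057 to 2107 in the wild type libraries. Between the replicates of a group, the Spearman correlation across genes lay between 0.9854 and 0.9953; genes are no independent replicates. The labels do not say that replicates were separate cultures, so a p-value here covers the spread between libraries, which may be technical. They name no batch. All 4 groups share 1 estimate of that spread. Values below are CPM, read counts divided by library size and put on a common total, with library sizes scaled by the trimmed mean of M-values (TMM), and a log2 fold change is given ± its standard error (SE) with n = 2 libraries per group. A gene is said to rise or fall, or to be called, when its adjusted p from edgeR, corrected over all 6169 genes, was under 0.05. The libraries are of bulk cultures, so fewer cells carrying a transcript and less of it per cell cannot be told apart.

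Levels per gene length spanned a wide range. In untreated wild type, ERG3, the sterol desaturase gene, had 636.1 CPM per kilobase, ERG2, for a sterol isomerase, 623.2 and ERG25, for the methyl sterol oxidase, 596.8. ERG11, the gene of the lanosterol demethylase that azole drugs inhibit, followed with 563.8 CPM per kilobase. The regulators stood at the low end, from 38.0 CPM per kilobase for MOT3 to 20.4 for SUT1. HES1, a member of the oxysterol-binding protein family, was the lowest of the 32 genes at 2.47 CPM per kilobase. In wild type with rapamycin ERG25 led with 813.3 CPM per kilobase, ahead of ERG3 with 608 and ERG1, the squalene epoxidase gene, with 553.3.

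**Figure D1:**
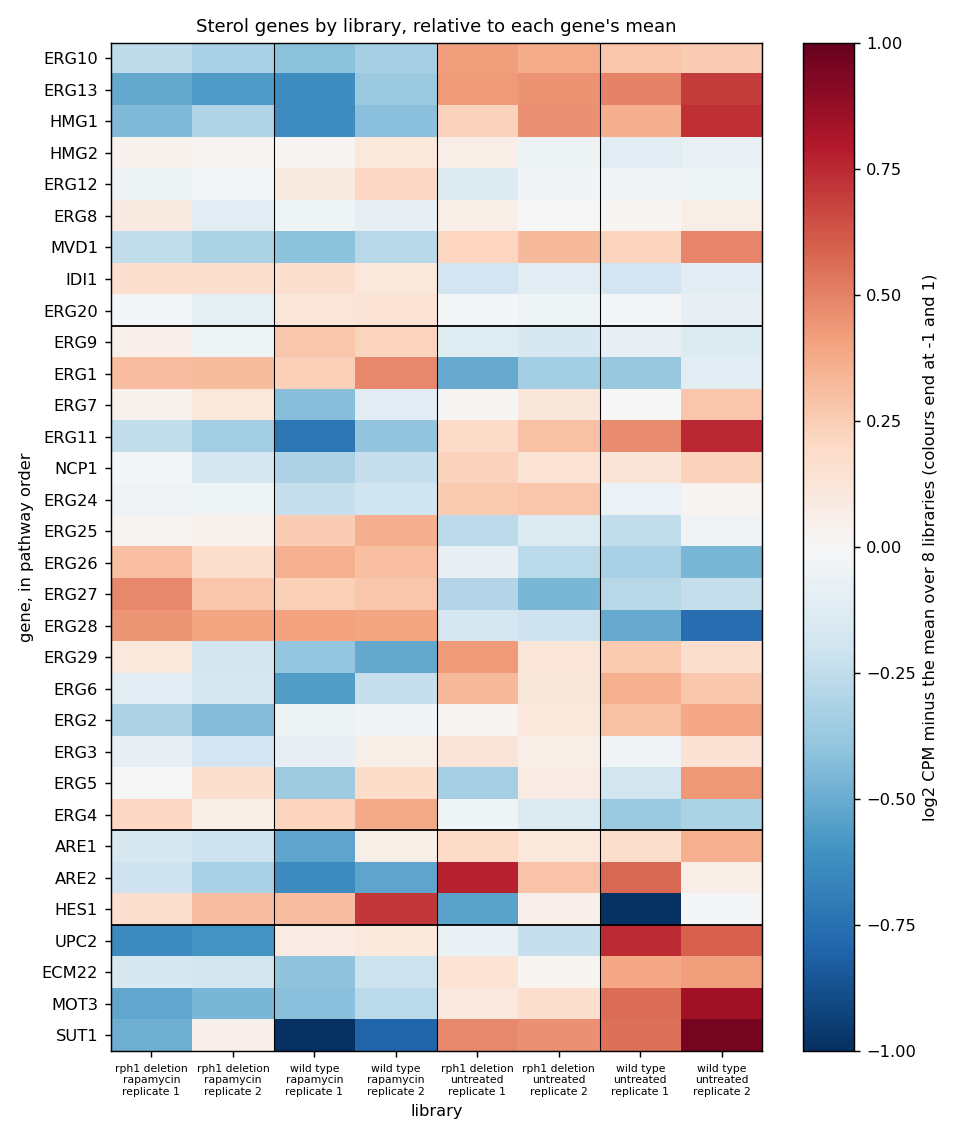
Heat map of the 32 sterol genes (rows, in pathway order) in the 8 libraries (columns, 2 per group); colour is log2 CPM minus the gene's mean over the 8 libraries. In wild type, both rapamycin libraries lay above both untreated ones for 12 genes and below them for 18, beside 42.6% and 40.9% of all genes tested, and only ERG3 and ERG5 overlapped.

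With rapamycin in wild type 4 of the 9 early genes fell (ERG10, ERG13, HMG1 and MVD1) and 1 rose (IDI1), where 33.9% of all genes tested were called lower and 34.8% higher. The median log2 fold change of the early genes was -0.10, beside 0.018 over all genes. ERG13, which encodes HMG-CoA synthase, had 247.9 and 295 CPM in wild type with rapamycin, against 538.8 and 622.1 CPM in untreated wild type. Both rapamycin libraries lay far below both untreated ones, and the gene fell by 1.10 ± 0.12 on the log2 scale (edgeR adjusted p = 8.74e-05).

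The paralogs HMG1 and HMG2 encode HMG-CoA reductase, the main control point of the pathway. HMG1 had 77.3 and 89.4 CPM in wild type with rapamycin, against 153.6 and 198.5 CPM in untreated wild type, and fell by 1.08 ± 0.15 on the log2 scale (adjusted p = 0.000317). HMG2 had 121 and 128.8 CPM with rapamycin, against 111 and 113.8 CPM untreated; these values did not overlap, but the change of 0.15 ± 0.08 did not pass the test (adjusted p = 0.137). With library totals alone in place of TMM, HMG2 was called higher (0.49, adjusted p = 0.00113). The difference between the paralogs was not tested.

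ERG10, for the acetoacetyl-CoA thiolase of the first step, fell by 0.63 ± 0.09 on the log2 scale, and MVD1, for mevalonate diphosphate decarboxylase, by 0.70 ± 0.11. Between these steps, the kinase genes ERG12 and ERG8 had changes of 0.18 ± 0.09 and -0.10 ± 0.09 and did not pass the test. IDI1, for isopentenyl diphosphate isomerase, was the early gene that rose, by 0.29 ± 0.09 (adjusted p = 0.0205). The call ended when only the 4 wild type libraries were fitted (0.27, adjusted p = 0.102). IDI1 missed the threshold when wild type untreated replicate 1 (adjusted p = 0.0838) or wild type rapamycin replicate 1 (0.0719) was left out. ERG20, for farnesyl diphosphate synthase, had 0.17 ± 0.09 (adjusted p = 0.13).

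**Figure D2:**
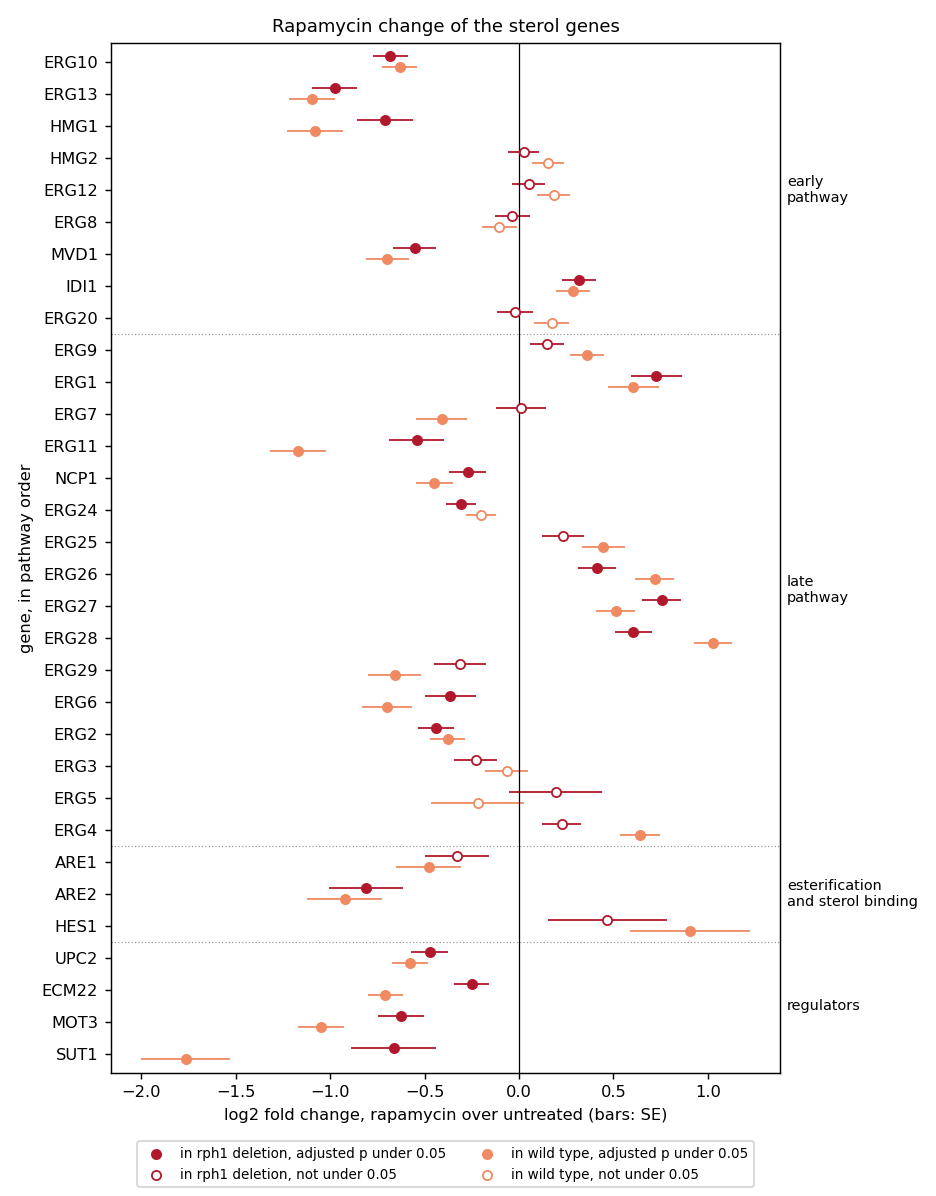
Log2 fold change of rapamycin over untreated for each of the 32 genes in pathway order, in the rph1 deletion (upper point of each pair) and in wild type (lower point); bars are SE, filled points have adjusted p under 0.05. In wild type ERG28 reaches 1.03 and SUT1 -1.76, and all 4 regulators lie below 0 in both genotypes.

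Of the 16 late genes 7 rose and 6 fell in wild type with rapamycin, beside the 34.8% and 33.9% of all genes tested, with a median log2 fold change of -0.13. Shares this near those of all genes are not a result about the late pathway, and single genes are given for their own values. The 4 genes of the sterol demethylation complex, placed together here after their values were seen, all rose: ERG25 for the oxidase, ERG26 for the decarboxylase, ERG27 for the keto reductase and ERG28 for the scaffold that tethers them. ERG28 had 152.9 and 152.4 CPM with rapamycin, against 81.7 and 68.3 CPM untreated, and rose 2.04-fold (1.03 ± 0.10, adjusted p = 4.89e-05). ERG26 had 240.2 and 232.1 CPM with rapamycin, against 150 and 137.3 CPM untreated, a rise of 0.72 ± 0.10 (adjusted p = 0.000394). For both genes the treated libraries were well above the untreated ones and close to each other. ERG27 rose by 0.51 ± 0.10 and ERG25 by 0.45 ± 0.11.

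The other late genes that rose were ERG9, ERG1 and ERG4. ERG9, for squalene synthase, rose by 0.36 ± 0.09 (adjusted p = 0.00701). ERG1, for squalene epoxidase, had 756.8 and 893.1 CPM with rapamycin, against 492.6 and 591.5 CPM untreated, and rose by 0.61 ± 0.14 (adjusted p = 0.00423). ERG4, the reductase gene of the last step, had 562.9 and 627.8 CPM in wild type with rapamycin, against 374.7 and 389.2 CPM in untreated wild type. The groups were clearly apart, and the rise was 0.64 ± 0.11 (adjusted p = 0.000894). The call of ERG9 ended when only the 4 wild type libraries were fitted (adjusted p = 0.05, at the threshold).

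The late genes that fell were ERG7, ERG11, NCP1, ERG29, ERG6 and ERG2. ERG11 had 354 and 444.3 CPM in wild type with rapamycin, against 813 and 983.4 CPM in untreated wild type. It fell 2.25-fold, by 1.17 ± 0.15 on the log2 scale (adjusted p = 0.000191), the largest fall among the 25 pathway genes. NCP1, the reductase that passes electrons to Erg11, fell by 0.45 ± 0.10, and ERG7, for lanosterol synthase, by 0.41 ± 0.13 (adjusted p = 0.0249). ERG7 missed the threshold when wild type untreated replicate 2 (adjusted p = 0.14) or wild type rapamycin replicate 1 (0.162) was left out, when only the 4 wild type libraries were fitted (0.0505) and with library totals alone (0.663).

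Among later steps ERG6, for the sterol methyltransferase, fell by 0.70 ± 0.13, ERG2 by 0.38 ± 0.09 and ERG29, for a protein of the endoplasmic reticulum needed for methyl sterol oxidation, by 0.66 ± 0.14. ERG24, a sterol reductase gene, had -0.20 ± 0.08 (adjusted p = 0.0505). ERG3 had -0.07 ± 0.11, and ERG5, which encodes the other P450 enzyme of the pathway, had -0.22 ± 0.25. The replicates of ERG5 spread widely, with 109.1 and 158.8 CPM with rapamycin, against 122.6 and 188.7 CPM untreated, so these groups overlap.

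ARE1 and ARE2 encode the acyltransferases that turn free sterol into storage esters. ARE2 had 66.7 and 71.9 CPM in wild type with rapamycin, against 154.9 and 108.4 CPM in untreated wild type, and fell by 0.92 ± 0.20 on the log2 scale (adjusted p = 0.00346). ARE1 fell by 0.48 ± 0.17 (adjusted p = 0.0357), but missed the threshold when wild type untreated replicate 2 (adjusted p = 0.138), wild type rapamycin replicate 1 (0.167) or either deletion rapamycin replicate (0.0563 and 0.0561) was left out. Fitting only the 4 wild type libraries also ended the call of ARE1 (-0.50, adjusted p = 0.0586), as did library totals alone (-0.14, adjusted p = 0.498). ARE1 overlaps the annotated gene YCR050C, and whether the counting used strand is not stated. HES1 had 5.4 and 7.1 CPM with rapamycin, against 2.2 and 4.3 CPM untreated, a rise of 0.90 ± 0.32 (adjusted p = 0.0336). At this low level the call ended when wild type untreated replicate 1 (adjusted p = 0.137) or wild type rapamycin replicate 2 (0.135) was left out.

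All 4 regulators fell with rapamycin in wild type, with a median log2 fold change of -0.88, beside 33.9% of all genes tested called lower. SUT1 (YGL162W), for a zinc cluster protein that acts on sterol uptake, had 7.7 and 11.2 CPM in the deletion with rapamycin, 4.7 and 6.2 CPM in wild type with rapamycin, 15.1 and 14.8 CPM in the untreated deletion and 15.8 and 21 CPM in untreated wild type. The wild type rapamycin libraries were the lowest of all 8, and in wild type the gene fell 3.40-fold, by 1.76 ± 0.24 on the log2 scale (adjusted p = 0.000276). MOT3 (YMR070W), a zinc finger repressor, had 23.9 and 24.9 CPM in the deletion with rapamycin, 25.6 and 28.5 CPM in wild type with rapamycin, 36.6 and 38.6 CPM in the untreated deletion and 50.5 and 61.4 CPM in untreated wild type. It fell by 1.05 ± 0.12 in wild type (adjusted p = 0.000122), and the untreated wild type stood above every other library.

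ECM22 (YLR228C) and UPC2 (YDR213W) encode related activators of late sterol genes. ECM22 had 58.2 and 57.2 CPM in the deletion with rapamycin, 49.2 and 56 CPM in wild type with rapamycin, 71.4 and 66 CPM in the untreated deletion and 84.8 and 87 CPM in untreated wild type. In wild type it fell by 0.71 ± 0.09 on the log2 scale (adjusted p = 0.000245). UPC2 had 32 and 32.9 CPM in the deletion with rapamycin, 52.7 and 53.7 CPM in wild type with rapamycin, 47.5 and 42.5 CPM in the untreated deletion and 83.5 and 75.3 CPM in untreated wild type. These 4 groups did not overlap, and UPC2 fell in wild type by 0.58 ± 0.10 (adjusted p = 0.000903).

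**Figure D3:**
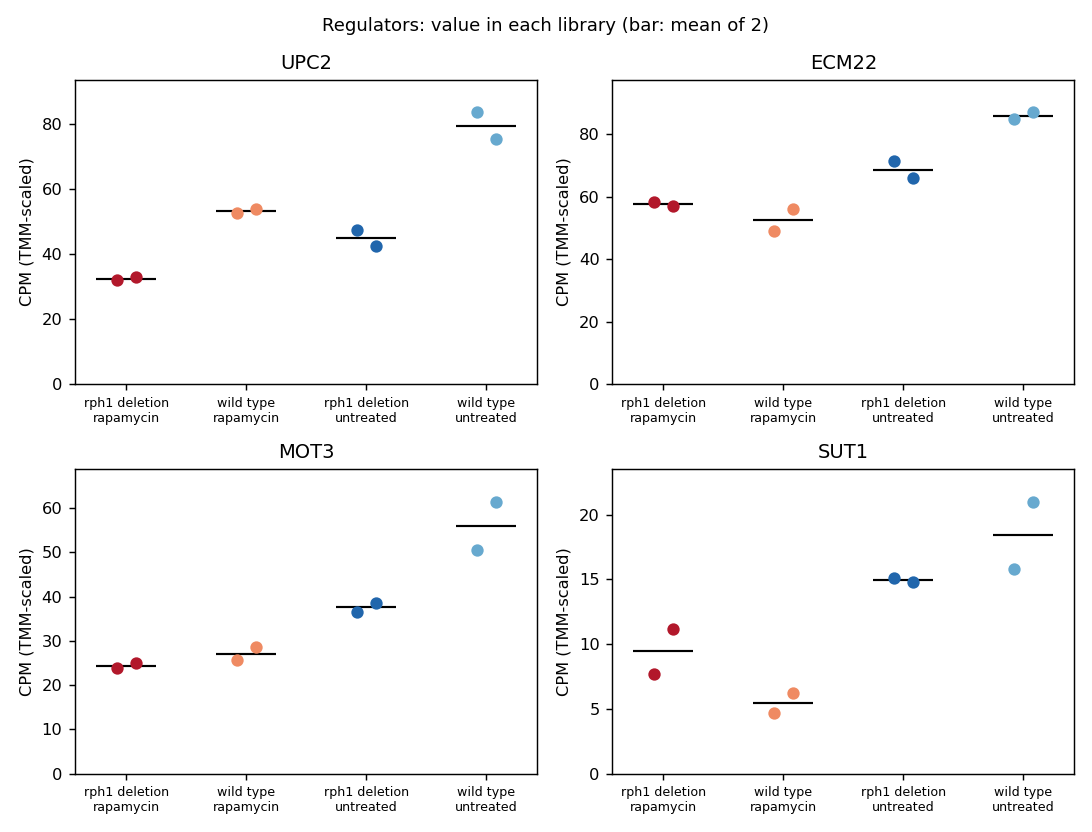
CPM (TMM-scaled, from 0) of the 4 regulators in each library; points are libraries, bars the mean of 2. UPC2 lies at 32 and 32.9 CPM in the deletion with rapamycin, against 52.7 and 53.7 CPM in wild type with rapamycin, and the deletion also lies below wild type in untreated cells.

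Over the whole set, 9 of the 32 genes rose and 16 fell in wild type, beside 68.7% of all genes tested called in either direction. Early and late genes had nearly the same median, with late minus early at -0.03. Leaving out wild type untreated replicate 2 turned the difference to 0.156, and leaving out wild type rapamycin replicate 1 gave 0.144, so no order of early and late genes was read from it. Directions here are relative to the TMM scale. Ribosomal protein genes held 2.64% to 4.87% of counts in the rapamycin libraries and 18.2% to 21.04% in the untreated ones. As a plain share of all counts, the 32 genes took 0.837% and 0.929% in wild type with rapamycin, against 0.724% and 0.794% in untreated wild type. With library totals alone in place of TMM, the median of all genes moved to 0.354. Then 13 of the 32 genes were called higher and 11 lower, beside 3112 and 1335 of the 6169 genes tested. Newly called higher were the early genes HMG2, ERG12 (0.52, adjusted p = 0.00145), ERG8 (0.23, 0.0353) and ERG20 (0.51, 0.000788). Of the 9 early genes 5 were thus higher and 4 lower. ERG7, NCP1, ERG2, ARE1 and UPC2 (-0.24, adjusted p = 0.0513) were no longer called.

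In the rph1 deletion, rapamycin gave 5 genes higher and 14 lower of the 32, beside 28.6% and 28.7% of all genes tested (57.4% in either direction). Leaving out 1 deletion library at a time lowered the number of falls to 9 without deletion untreated replicate 1, deletion untreated replicate 2 or deletion rapamycin replicate 1, and to 7 without deletion rapamycin replicate 2. The number of rises was 3 without deletion untreated replicate 2 or deletion rapamycin replicate 1. Among the genes called with all libraries were 5 genes that rose and 13 that fell in both genotypes, and no gene was called in opposite directions. The same counts over all genes were not made, so this agreement is not a result about the sterol genes. With library totals alone, the median of all genes stood at 0.321. Then 12 of the 32 genes were called higher and 2 lower, beside 2987 and 871 of the 6169 genes tested. With TMM, the largest rises among the 32 genes were those of ERG27 (0.75 ± 0.10, adjusted p = 0.000594), ERG1 (0.73 ± 0.14, adjusted p = 0.00244), ERG28 (0.61 ± 0.10, adjusted p = 0.00139) and ERG26 (0.41 ± 0.10, adjusted p = 0.00935). ERG27 had 304.2 and 264.5 CPM in the deletion with rapamycin, against 178.3 and 158.7 CPM in the untreated deletion. ERG1 had 793 and 797.4 CPM with rapamycin, against 452.6 and 507.7 CPM untreated. Both genes were thus well above their untreated libraries. Among all genes tested, 40.7% had both rapamycin libraries above both untreated ones in the deletion. ERG28 had 157.3 and 151.9 CPM in the deletion with rapamycin, against 103.1 and 100.1 CPM in the untreated deletion. ERG26 had 231.2 and 212.8 CPM with rapamycin, against 177.2 and 156.3 CPM untreated. Neither gene's groups overlapped, but ERG26 missed the threshold when deletion untreated replicate 2 (adjusted p = 0.0852) or deletion rapamycin replicate 1 (0.0668) was left out.

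The largest falls in the deletion were those of ERG13, ARE2, HMG1 and ERG10, 3 of them at the entry of the pathway. ERG13 had 268.3 and 258.1 CPM in the deletion with rapamycin, against 513.7 and 522.1 CPM in the untreated deletion, and fell by 0.98 ± 0.12 on the log2 scale (adjusted p = 0.000316). HMG1 had 88.1 and 97.1 CPM with rapamycin, against 139.8 and 163.5 CPM untreated, a fall of 0.71 ± 0.15 (adjusted p = 0.00415). ERG10 had 385 and 367.4 CPM with rapamycin, against 614.5 and 592.2 CPM untreated, a fall of 0.68 ± 0.09 (adjusted p = 0.000509). In these 3 genes the groups were wide apart. Of all genes tested, 41% had both rapamycin libraries below both untreated ones in the deletion. MVD1 fell by 0.55 ± 0.11 (adjusted p = 0.00406). ARE2 had 89.8 and 83.1 CPM with rapamycin, against 176.9 and 126.8 CPM untreated. It fell by 0.81 ± 0.20 (adjusted p = 0.00851), with adjusted p = 0.0638 without deletion rapamycin replicate 2. With library totals alone, HMG1 (adjusted p = 0.0727), MVD1 (0.134) and ARE2 (0.0553) missed the threshold. The smaller changes in the deletion were a rise of IDI1 (0.32 ± 0.09, adjusted p = 0.0171) and falls of ERG2 (0.44 ± 0.09, 0.00481), ERG24 (0.31 ± 0.08, 0.0112), ERG6 (0.36 ± 0.13, 0.0459) and NCP1 (0.27 ± 0.10, 0.0434). IDI1, ERG24, ERG6 and NCP1 each missed the threshold without any of the 4 deletion libraries (adjusted p = 0.053 to 0.265), NCP1 also without either wild type rapamycin library (0.0677 and 0.0647), and ERG2 without deletion rapamycin replicate 2 (0.0508). With library totals alone ERG2 (-0.11, adjusted p = 0.308) and ERG6 (-0.03, 0.837) were not called, and NCP1 (0.06, 0.609) and ERG24 (0.02, 0.821) turned positive without a call.

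The 4 regulators fell in the deletion too, with a median of -0.55, beside 28.7% of all genes tested called lower. UPC2 fell by 0.47 ± 0.10 (adjusted p = 0.00397), MOT3 by 0.62 ± 0.12 (adjusted p = 0.00319), SUT1 by 0.66 ± 0.23 (adjusted p = 0.035) and ECM22 by 0.25 ± 0.09 (adjusted p = 0.0461). With library totals alone none of the 4 was called: UPC2 had -0.14 (adjusted p = 0.239), MOT3 -0.29 (0.0902), SUT1 -0.33 (0.274) and ECM22 0.08 (0.492). SUT1 also missed the threshold without deletion untreated replicates 1 and 2 (adjusted p = 0.0976 and 0.0927) and deletion rapamycin replicate 1 (0.196). ECM22 was called in 6 of 17 alternatives, and among the fits that left out 1 library its adjusted p was highest without deletion untreated replicate 1 (0.228). It lay between 0.0506 and 0.179 without the other deletion libraries, either wild type untreated library or wild type rapamycin replicate 1.

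The comparison of deletion and wild type asks which sterol genes differ in RNA between cells with and without Rph1. In untreated cells 1 of the 32 genes was higher and 2 were lower, beside 4.88% and 2.53% of all genes tested (7.41% in either direction). UPC2 was lower in the deletion, by 0.82 ± 0.10 on the log2 scale, or 1.76-fold (adjusted p = 0.00554). Both deletion libraries were below both wild type libraries, as in 30.3% of all genes tested. The call held in 16 of 17 alternatives and missed the threshold when only the 4 untreated libraries were fitted (adjusted p = 0.0752). MOT3 was lower by 0.57 ± 0.12 (adjusted p = 0.0301). ERG28 was higher in the untreated deletion, with 103.1 and 100.1 CPM, against 81.7 and 68.3 CPM in untreated wild type (0.44 ± 0.10, adjusted p = 0.0401). Both of these calls rested on few libraries. They ended when only the 4 untreated libraries were fitted (adjusted p = 0.12 for MOT3 and 0.141 for ERG28). MOT3 missed the threshold without wild type untreated replicate 2, each deletion untreated replicate and each deletion rapamycin replicate (adjusted p = 0.0613 to 0.189), and with library totals alone (0.0582). ERG28 missed it without any of the 8 libraries except wild type untreated replicate 1 (adjusted p = 0.0648 to 0.218).

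With rapamycin 1 of the 32 genes was higher in the deletion and 2 were lower, beside 14.4% and 13.5% of all genes tested. UPC2 was again lower, by 0.71 ± 0.10 on the log2 scale, or 1.64-fold (adjusted p = 0.00223), and this call held in 17 of 17 alternatives, with adjusted p from 1.85e-06 to 0.0292. SUT1 was higher in the deletion, by 0.80 ± 0.24 (adjusted p = 0.0397). Both deletion libraries lay above both wild type libraries, as in 34.4% of all genes tested. ERG2 had 265.6 and 243.7 CPM in the deletion with rapamycin, against 318.2 and 323.7 CPM in wild type with rapamycin, a difference of -0.33 ± 0.09 (adjusted p = 0.0324). The calls of SUT1 and ERG2 depended on which libraries were fitted. SUT1 missed the threshold without each wild type rapamycin replicate, each deletion untreated replicate and deletion rapamycin replicate 2 (adjusted p = 0.0541 to 0.187). ERG2 missed it without each deletion library and each wild type rapamycin library (adjusted p = 0.0648 to 0.223), and with library totals alone (0.0541).

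**Figure D4:**
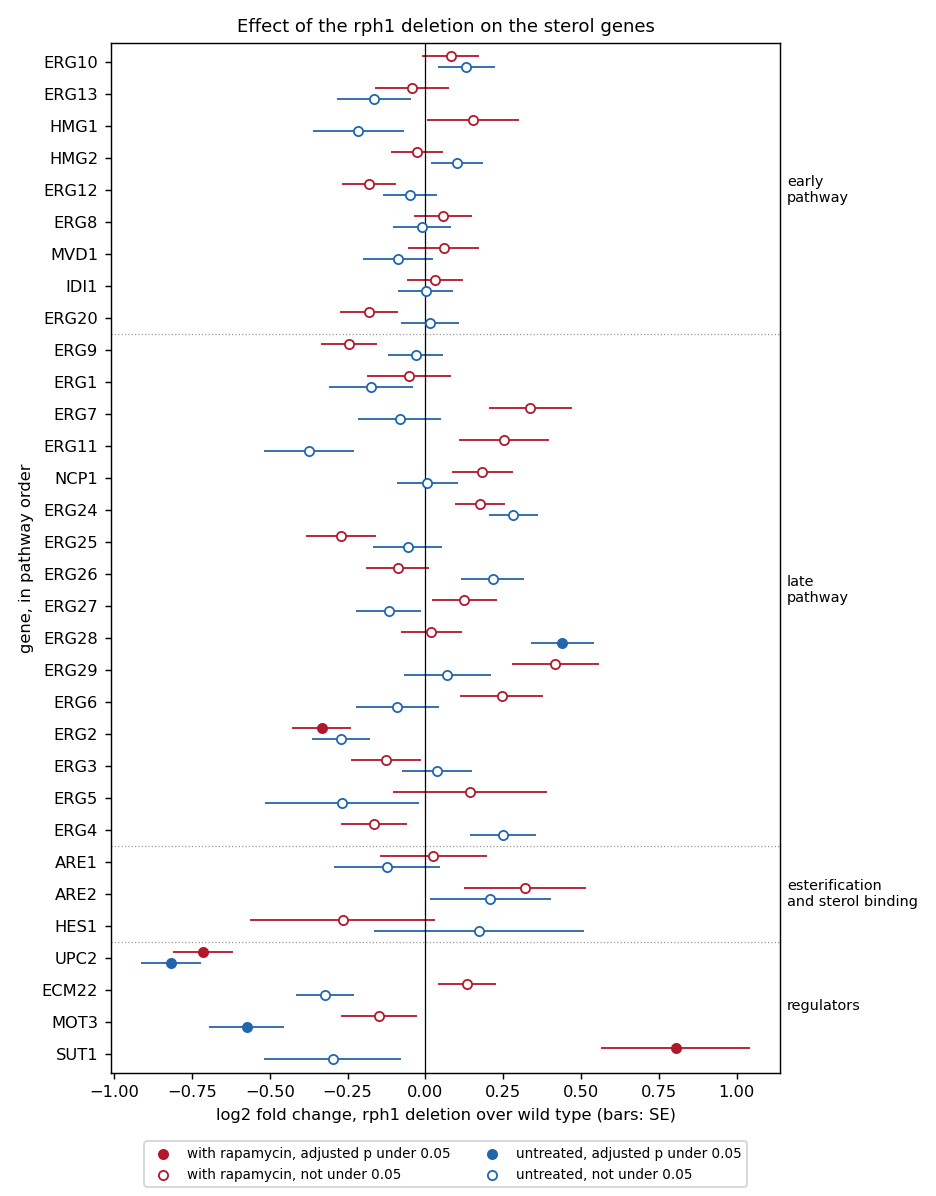
Log2 fold change of rph1 deletion over wild type for each of the 32 genes, with rapamycin (upper point of each pair) and untreated (lower point); bars are SE, filled points have adjusted p under 0.05. UPC2 is the gene with a filled point in both conditions, at -0.71 with rapamycin and -0.82 untreated.

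The enzymes upstream of squalene gave no call between deletion and wild type. Of the 9 early genes 0 were called by edgeR with rapamycin or untreated, 0 had an unadjusted p under 0.05 and DESeq2 called 0. Their medians were 0.03 with rapamycin and -0.01 untreated. Over all genes tested 28% were called with rapamycin and 7.41% untreated. Of the 16 late genes 1 was called in each of the comparisons, so few calls were not particular to the early genes. Among late genes ERG29 had 0.42 ± 0.14 (adjusted p = 0.0591) and ERG7 0.34 ± 0.13 (adjusted p = 0.0973) in the deletion with rapamycin, and ERG24 had 0.28 ± 0.08 (adjusted p = 0.0734) in the untreated deletion. These did not pass the edgeR test, while DESeq2 called ERG29 (adjusted p = 0.0304), ERG7 (0.0457) and ERG24 (0.0262).

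The interaction asks whether the rapamycin change differed between deletion and wild type. By edgeR it called 0 of the 32 genes, beside 13.1% of all genes tested (7.04% higher and 6.08% lower). An unadjusted p under 0.05 was found for 6 of the 32, and the same count over all genes was not made. DESeq2 called 3 of the 32 higher, beside 648 higher and 501 lower of the 6169 genes. The 3 were SUT1, ECM22 and ERG11. The edgeR interaction of SUT1 was 1.10 ± 0.33 (adjusted p = 0.0613), that of ECM22 0.46 ± 0.13 (adjusted p = 0.0561) and that of ERG11 0.63 ± 0.20 (adjusted p = 0.0815). Positive values mean a smaller fall in the deletion. With a term for replicate number, edgeR called HMG1, ERG7, ERG11, ECM22, MOT3 and SUT1 higher and ERG28 lower. That fit called 878 of the 6169 genes higher and 770 lower, and the labels do not say what a replicate number marks. ERG11 had 492.8 and 458.2 CPM in the deletion with rapamycin, against 667.8 and 717.3 CPM in the untreated deletion, so its fall there was 0.54 ± 0.15 on the log2 scale (adjusted p = 0.0135). That fall missed the threshold when deletion untreated replicate 2 (adjusted p = 0.076) or deletion rapamycin replicate 2 (0.0797) was left out, and with library totals alone (0.239). Without wild type untreated replicate 1, the interaction was 0.76 for ERG11, 1.29 for SUT1 and -0.55 for ERG28.

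Neighbouring branches of sterol metabolism were read from 3 further lists, whose counts stand beside 34.8% of all genes tested called higher and 33.9% called lower. Of 23 genes of sterol transport, uptake and ester breakdown, 11 rose and 6 fell in wild type with rapamycin, with a median of 0.04. ATF2, which acetylates sterols, fell by 3.23 ± 0.18 on the log2 scale (adjusted p = 2.76e-06). NCR1 and NPC2, relatives of the human Niemann-Pick sterol carriers, rose by 1.25 ± 0.10 and 1.06 ± 0.09. Of 10 genes of electron transfer, HMG-CoA reductase control and haem regulation, 3 rose and 4 fell. The paralogs NSG1 and NSG2, listed here for HMG-CoA reductase control, went apart, NSG1 falling by 1.19 ± 0.08 and NSG2 rising by 1.09 ± 0.08. DAP1, a haem-binding partner of Erg11, rose by 1.54 ± 0.11. Of 13 other users of isoprenoid precursors 1 rose and 6 fell, among them RER2 for dolichol synthesis, with a fall of 1.37 ± 0.13, CDC43 for protein geranylgeranylation and RCE1, a protease of prenylated proteins.

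FLAG-Rph1 ChIP asks at which of these genes the protein was found. The authors' deposited tables listed 7 of the 32 genes with rapamycin (21.9%) and 1 untreated (3.12%), beside 9.79% and 6.61% of the 7036 entries of the count files, or 10.4% and 6.89% of the genes tested. With rapamycin the 7 were 6 of the 16 late genes and 1 of the 9 early genes; none of the 4 regulators was listed in either condition. For every entry matched to the gene table, start and end equal the gene's own bounds, so no peak position is known, and neither the control nor any pooling of replicates is stated. The 2 tables differ in length and their scales are not known to match, so values were not compared between them.

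In the authors' deposited table for rapamycin, ERG25 (sacCer3, chromosome VII, 610564 to 611493) had a fold enrichment of 75.2, the highest of the 7 genes, at rank 133 of 705. ERG1 (chromosome VII, 846933 to 848423) followed in the authors' deposited table with 50.7, ERG11 (chromosome VIII, 120091 to 121683) with 35.1 and ERG3 (chromosome XII, 253861 to 254958) with 25.8. These 4 were at or above the list's median of 25.3. Below it, the authors' deposited table gave 18.2 for ERG5 (chromosome XIII, 300869 to 302485), 13.3 for ERG6 (chromosome XIII, 251839 to 252990) and 12.2 for IDI1 (chromosome XVI, 327864 to 328730). IDI1 shared its value with the mitochondrial ribosomal protein gene MRP51, so the enrichment cannot be placed at one of them. In the authors' deposited table for untreated cells, ERG11 had 8.18, at rank 460 of 466.

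**Figure D5:**
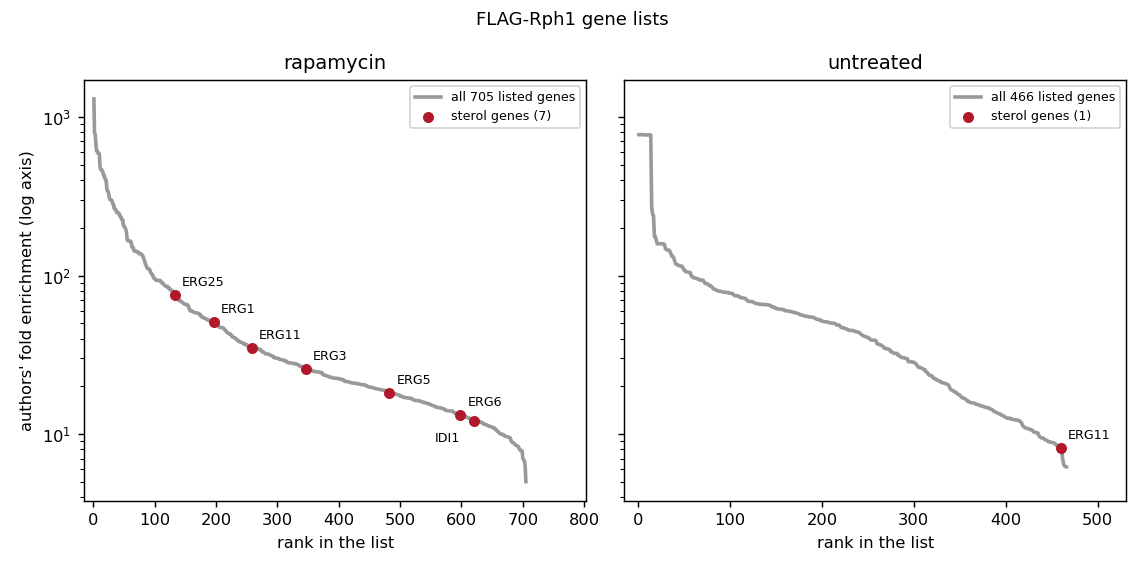
The authors' fold enrichment (log axis) against rank; the grey line holds all genes of the FLAG-Rph1 list with rapamycin (left, 705 genes) and untreated (right, 466 genes); red points are the sterol genes. With rapamycin 7 sterol genes lie between 12.2 and 75.2, and untreated ERG11 lies near the end of the list at 8.18.

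The 7 listed genes did not move together in RNA. In wild type with rapamycin ERG1, ERG25 and IDI1 rose, ERG11 and ERG6 fell, and ERG3 and ERG5 did not pass the test. In the deletion against wild type with rapamycin, edgeR called 0 of the 7. It called 28% of all genes tested, and 43.5% of the 561 genes listed with rapamycin and matched to a length. Of the 7, 1 had an unadjusted p under 0.05, DESeq2 called 0, and edgeR with a term for replicate number called ERG25 (-0.27, adjusted p = 0.0423). Their log2 fold changes there lay between -0.27 for ERG25 and 0.25 for ERG11. ERG25 had 624.2 and 628.8 CPM in the deletion with rapamycin, 727.8 and 785 CPM in wild type with rapamycin, 510.8 and 556 CPM in the untreated deletion and 514.6 and 595.3 CPM in untreated wild type. ERG3 had 634.2 and 588.9 CPM in the deletion with rapamycin, 634.8 and 700.3 CPM in wild type with rapamycin, 735.2 and 698.8 CPM in the untreated deletion and 655.2 and 741.7 CPM in untreated wild type. The deletion lay below wild type with rapamycin in both genes, by a narrow margin in ERG3. ERG6 had 376.8 and 359.8 CPM in the deletion with rapamycin, 275.1 and 346.6 CPM in wild type with rapamycin, 507.7 and 439.7 CPM in the untreated deletion and 519.4 and 489.6 CPM in untreated wild type. IDI1 had 377.5 and 377.1 CPM in the deletion with rapamycin, 377.3 and 361.6 CPM in wild type with rapamycin, 293.9 and 311.8 CPM in the untreated deletion and 294.1 and 311.4 CPM in untreated wild type. ERG5 had 139.6 and 156.3 CPM in the deletion with rapamycin and 109.1 and 158.8 CPM in wild type with rapamycin. Untreated it had 110.6 and 148 CPM in the deletion and 122.6 and 188.7 CPM in wild type. Deletion and wild type overlapped with rapamycin in ERG1, IDI1 and ERG5. They did not in ERG6 and ERG11, where the deletion lay above wild type. Of all genes tested, 34.4% had both deletion libraries above both wild type libraries with rapamycin and 34.3% had them below. UPC2, the gene lower in the deletion in both conditions, was in neither list. Expression moved with listing: in wild type with rapamycin the listed sterol genes had a median of 426.1 CPM per kilobase (82.8 to 813.3) and the 25 others 95.2 (4.8 to 551.8). Over all genes matched to a length, the 561 listed had a median of 354.5 CPM per kilobase and the 5199 others 44.6. The part of expression level in the listing was not tested.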

How the data were processed

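The deposited RNA files hold raw read counts per annotated gene; per the submitters' processing notes the series used Trimmomatic 0.38, STAR 2.5.3a, Bowtie2 2.3.4.3, featureCounts 1.6.3, DESeq2 1.24.0 and MACS2 2.2.1 with build sacCer3, with no role given. Strand use and annotation are not given in the sources used here. The deposited FLAG-Rph1 tables hold, per the file headers, a fold enrichment ratio per listed gene. Systematic names were paired with symbols, lengths and coordinates through the RefSeq gene table (assembly R64; 5956 of 7036 entries matched). Counts were filtered with filterByExpr (minimum count 10), scaled by TMM and fitted with edgeR 4.0.16 in R 4.3.3 (glmQLFit, glmQLFTest, a mean per group, all 8 libraries), after a test on simulated data; p-values were adjusted by Benjamini-Hochberg over 6169 genes. SEs come from the F statistic of each comparison. Totals of 18037199 to 24769193 counts set the precision. DESeq2 1.42.0, other scalings and filters, fits of fewer libraries and a term for replicate number were alternatives. The genes and lists were chosen with earlier results of these data known, so no list was tested. By rule, all members are named. Values per library in the groups compared are given for regulators, the 4 largest rises and falls with rapamycin, called genes in the deletion comparisons and genes in the ChIP tables. An adjusted p is not printed for every change of these genes. The RNA polymerase II samples were not used here.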

Additional observations from a re-analysis of the deposited data

How the results depend on the processing

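Of the calls, 8 of 25 in wild type with rapamycin, 14 of 19 in the deletion with rapamycin, 3 of 3 in the untreated deletion and 2 of 3 in the deletion with rapamycin against wild type were lost in at least 1 alternative. Leaving out 1 library gave 7 to 9 genes higher and 14 to 16 lower in wild type with rapamycin, 3 to 5 and 7 to 14 in the deletion with rapamycin, 0 to 1 and 1 to 2 in both comparisons of deletion with wild type, and 0 to 2 and 0 to 1 in the interaction. The early median then ranged from -0.128 to -0.046, -0.119 to 0.039, -0.042 to 0.022, -0.004 to 0.059 and -0.038 to 0.071 over the 5 comparisons in that order (rapamycin in wild type, rapamycin in the deletion, deletion untreated, deletion with rapamycin, interaction). The late median ranged from -0.198 to 0.076, -0.02 to 0.095, -0.048 to 0.056, 0.017 to 0.123 and -0.062 to 0.106, and late minus early from -0.098 to 0.156, -0.011 to 0.206, -0.046 to 0.042, -0.014 to 0.075 and -0.05 to 0.084. Scaling by library totals alone, chosen after seeing the data, gave early and late medians of 0.231 and 0.202 for rapamycin in wild type. They were 0.293 and 0.408 for rapamycin in the deletion. For deletion against wild type they were 0.053 and 0.021 untreated and 0.091 and 0.131 with rapamycin. For rapamycin in the deletion this scaling called 12 genes higher and 2 lower, beside 2987 and 871 of the 6169 genes tested. In each comparison of deletion with wild type it called 2 higher and 1 lower. Over all genes tested these calls were 394 and 87 untreated and 1080 and 638 with rapamycin. Over all genes, 70% of its calls were higher for rapamycin in wild type, against 50.6% with TMM. For rapamycin in the deletion the share was 77.4%, against 49.9%. For deletion against wild type it was 81.9% against 65.9% untreated, and 62.9% against 51.7% with rapamycin. Under it ERG8 was called higher with rapamycin in both genotypes (0.231 and 0.293), ERG20 was called higher in the deletion (0.308), and NCP1 (0.0564), ERG24 (0.0226) and ECM22 (0.0795) turned positive there without a call. For untreated deletion against untreated wild type, upper quartile scaling and DESeq2 gave 2 genes higher. Fitting only the 4 untreated libraries gave 0 higher, 0 lower and an early median of 0.031. For deletion against wild type with rapamycin, DESeq2 and the fit of 4 libraries gave 3 higher. In the interaction RLE scaling called 1 gene higher and DESeq2 3, beside 449 and 648 of the 6169 genes tested. The replicate numbers could not be shown to pair the libraries: the labels do not say what a number marks, each comparison has only 2 pairs, and same-numbered libraries deviated together with correlations of 0.188 to 0.556 across genes. With a replicate block calls numbered 2 higher and 3 lower for untreated deletion against untreated wild type. They numbered 3 higher and 4 lower for deletion against wild type with rapamycin. In the interaction they numbered 6 higher and 1 lower (HMG1, ERG7, ERG11, ECM22, MOT3 and SUT1 higher, ERG28 lower). Of the genes in the FLAG-Rph1 tables, 4 with rapamycin and 0 untreated stood at or above the list's median, and 6 and 1 had a value shared with no other listed gene of the chromosome. The planned count of promoter motifs was not run. The causes of these shifts were not tested.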

Other observations

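In the 3 further lists the interaction of edgeR called 1 gene higher and 1 lower of 23 (ATF2 and OSH6), 1 lower of 10 (DAP1) and 1 higher and 1 lower of 13 (RCE1 and STE24), beside 13.1% of all genes tested. The interaction was -0.75 ± 0.14 for OSH6 (adjusted p = 0.0141), 0.74 ± 0.15 for RCE1 (0.0217) and -0.62 ± 0.12 for STE24 (0.0174). DAP1 and ATF2 were singled out after their values were seen. DAP1, a haem-binding protein that supports Erg11, rose by 0.62 ± 0.11 on the log2 scale with rapamycin in the deletion and by 1.54 ± 0.11 in wild type, an interaction of -0.92 ± 0.15 (edgeR adjusted p = 0.0116). ATF2 fell by 2.35 ± 0.17 in the deletion and by 3.23 ± 0.18 in wild type, an interaction of 0.88 ± 0.24 (adjusted p = 0.0489). In the deletion with rapamycin against wild type with rapamycin, DAP1 was lower by 0.76 ± 0.11 on the log2 scale (adjusted p = 0.00262), while ATF2 had 0.47 ± 0.18 (adjusted p = 0.0877).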
